A study of Mus musculus with 9 samples.

Results

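Glutamate transport and recycling was followed in the mouse hippocampus through 9 genes, chosen by symbol from the 54532 genes listed in each deposited table: Slc1a1, Slc1a2, Slc1a3, Slc1a6, Slc17a7, Slc17a8, Glul, Slc38a1 and Slc38a3. Glutamate is the main excitatory transmitter of the brain. Vesicular transporters load it into synaptic vesicles, sodium-coupled transporters of the plasma membrane clear it after release, mostly into astrocytes, and there glutamine synthetase converts it to glutamine. Glutamine then leaves the astrocyte, enters neurons through system A carriers and is turned back into glutamate.

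RNA was sequenced from the hippocampus of C57BL/6 mice labelled male and 6 to 8 weeks old at purchase, in 3 groups of 3 samples. Con mice were kept on standard chow, HMD mice on a high-methionine diet for 8 weeks, which raises homocysteine, and Bet+HMD mice were on that diet for 8 weeks followed by 2.5% (w/v) betaine in the drinking water for 2 weeks. Whether the methionine diet went on during the betaine weeks is not stated. The strain field of the Bet+HMD samples is not the same in all 3, and the study's methods describe female mice. The libraries went with the label, since the Y-linked gene Ddx3y had 1170 to 1687 reads and Xist 0 to 14 reads in all 9. Nothing says that samples of a group were independent of cage or litter, so p-values measure the spread between these samples. In whole tissue, fewer cells of a type and less RNA per cell cannot be told apart.

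Values are FPKM, fragments scaled to the length of the gene and to the size of the library, which can be compared between genes because they are per length. Con and HMD were compared in the earlier of the 2 tables (16449388 to 18566712 reads assigned to genes per library), and the 2 comparisons with Bet+HMD were made inside the later one (16031464 to 18291952 reads), which lists Con and HMD again with slightly other values. The Bet+HMD libraries stood apart from the rest. Their FPKM summed to 249135 to 258514 against 289606 to 292361 in HMD and 288439 to 307899 in Con. Long intergenic non-coding RNAs took 1.40% to 1.45% of their reads, against 0.476% to 0.560% in HMD and 0.499% to 0.534% in Con, and genes of ribosomal proteins took 0.426% to 0.5001% against 0.839% to 1.02% and 0.876% to 1.35%. Pairs of Bet+HMD samples also differed less from each other. Their chi-square per degree of freedom was 3.00 to 4.21, against 11.8 to 42.2 for pairs inside HMD or Con. The test used below takes 1 spread for both groups compared. The Bet+HMD libraries were in the later table only. The 2 weeks of betaine followed the 8 weeks of diet, and no other group is labelled as kept for these 2 weeks more. Betaine, the longer time and any difference in library handling therefore cannot be told apart. Markers of hippocampal subfields were detected in every group, with a sum of 201 to 237 FPKM in Con, 181 to 213 in HMD and 161 to 165 in Bet+HMD.

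All 9 genes are protein-coding and had the same position in the deposited tables and in GENCODE M21 (GRCm38). By their mean over the 9 samples of the later table they ranked between 32 and 13269 of the 54532 listed genes. Glul, glutamine synthetase (chr1:153899944-153909723, plus strand), ranked 32 with 364 to 518 FPKM. Slc1a2, the astrocytic transporter GLT-1 (chr2:102658659-102790784, plus strand), ranked 45 with 230 to 385 FPKM. Slc17a7, the vesicular transporter VGLUT1 of cortical and hippocampal excitatory neurons (chr7:45163949-45176142, plus strand), ranked 95 with 166 to 260 FPKM. Slc1a3, the astrocytic transporter GLAST (chr15:8634124-8710764, minus strand), ranked 341 with 78.0 to 92.2 FPKM. These 4 genes had from 11577 to 84972 reads in a library of the later table.

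The other 5 genes were of middle or low level. Slc1a1, the neuronal transporter EAAC1 (chr19:28835049-28913960, plus strand), lay between 17.1 and 20.2 FPKM. The glutamine carriers Slc38a1, which takes glutamine into neurons (chr15:96571418-96642913, minus strand), and Slc38a3, through which astrocytes release it (chr9:107650634-107669530, minus strand), lay between 9.29 and 14.9 and between 8.33 and 12.9 FPKM. Slc1a6, the transporter EAAT4 best known from cerebellar Purkinje cells (chr10:78780496-78814765, plus strand), lay between 2.36 and 5.01 FPKM with 90 to 182 reads. Slc17a8, the vesicular transporter VGLUT3 of scattered interneurons and serotonergic fibres (chr10:89574020-89621253, minus strand), was the lowest with 0.707 to 1.57 FPKM and 58 to 127 reads. In the order of levels, the sample ranges of Glul and Slc1a2 overlapped, as did those of Slc1a2 and Slc17a7 and those of Slc38a1 and Slc38a3. All other neighbours in that order were separate in every sample. Overlapping annotated genes (Teddm2 and Mir8114 at Glul, Gm13872 at Slc1a2, Gm37310 at Slc1a3, Mir7055 at Slc17a7, Gm5822 and 4430402I18Rik at Slc1a1) make the reads of these members uncertain, as the use of strand in the counting is not stated.

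**Figure D1:**
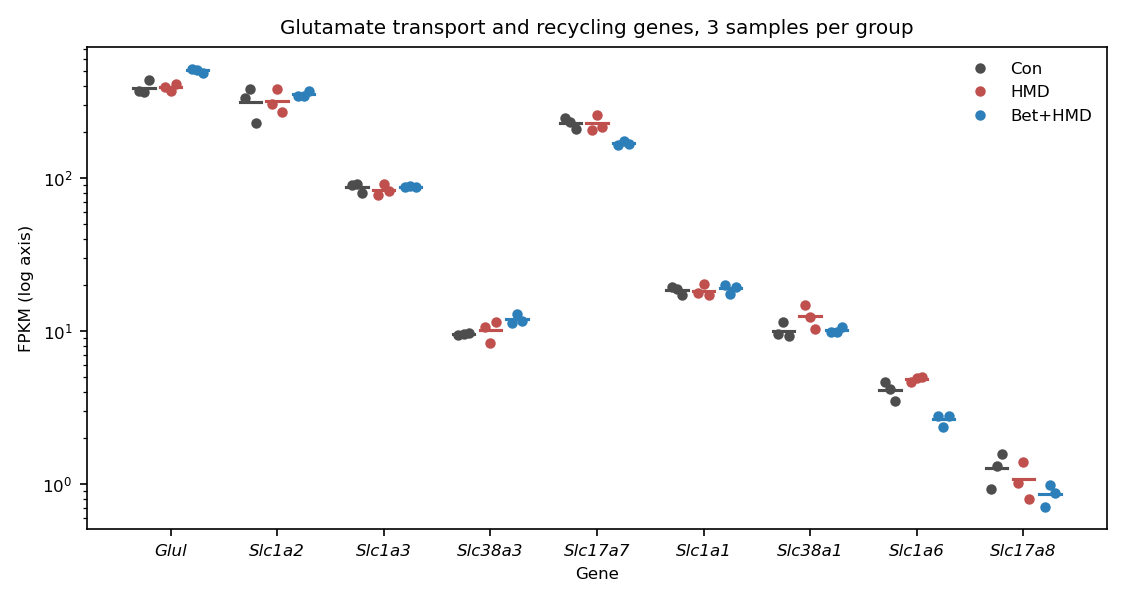
FPKM on a log axis of the 9 genes in the 9 samples of the later table, with a short line at the mean of each group of 3. Glul lies higher and Slc17a7 and Slc1a6 lower in the 3 Bet+HMD samples (blue) than in all Con (grey) and HMD (red) samples, while the other genes overlap with at least 1 group.

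The promoter windows of Glul, Slc17a7 and Slc1a6 are shown because these genes passed the test in both comparisons with Bet+HMD. RefSeq windows (GRCm38.p6) were matched for 7 of the 9 genes, all but Slc38a1 and Slc38a3. Each line gives the 250 bases before the start that RefSeq gives for the gene, 5′ to 3′ on the strand of the gene (plus for all 3). Capitals mark any match, on either strand, to the TATA box (TATAAA), the CCAAT box, the GC box (GGGCGG), an E-box (CACGTG), the cyclic AMP response element (TGACGTCA) or the hormone receptor half-site TGTTCT. Neighbouring or overlapping matches form 1 run of capitals.
Glul, chr1:153899679-153899928: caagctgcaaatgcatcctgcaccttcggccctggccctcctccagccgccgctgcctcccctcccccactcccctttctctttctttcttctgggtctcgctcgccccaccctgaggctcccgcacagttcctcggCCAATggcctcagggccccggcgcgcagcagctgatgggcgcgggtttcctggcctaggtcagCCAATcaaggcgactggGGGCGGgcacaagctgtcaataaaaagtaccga
Slc17a7, chr7:45163671-45163920: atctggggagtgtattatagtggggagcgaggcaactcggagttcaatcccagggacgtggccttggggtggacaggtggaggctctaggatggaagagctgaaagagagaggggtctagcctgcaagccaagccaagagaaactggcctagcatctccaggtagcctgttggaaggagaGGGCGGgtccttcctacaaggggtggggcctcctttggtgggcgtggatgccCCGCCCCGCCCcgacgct
Slc1a6, chr10:78780246-78780495: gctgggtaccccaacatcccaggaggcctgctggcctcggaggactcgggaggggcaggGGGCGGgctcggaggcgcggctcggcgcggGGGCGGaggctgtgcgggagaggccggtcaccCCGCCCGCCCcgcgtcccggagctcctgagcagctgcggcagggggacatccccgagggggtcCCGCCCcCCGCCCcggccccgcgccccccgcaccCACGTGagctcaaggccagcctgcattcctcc

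None of the 3 windows shown held TATAAA, which 12.4% of the 32851 mouse promoter windows of the same length held. The Glul window had 2 CCAAT and 1 GGGCGG match, and these motifs occurred in 33.8% and 32.7% of all windows. The Slc17a7 window had 3 GGGCGG matches, of which the last pair shares 1 base. The Slc1a6 window had 6 GGGCGG matches and 1 CACGTG match, the latter found in 6.02% of all windows. TGACGTCA (in 1.55% of windows) and TGTTCT (in 16.1%) were in none of the 3. The share of G and C was 64.8% for Glul, 61.2% for Slc17a7 and 78.8% for Slc1a6, against a median of 52.4% over all windows, and the number of CpG was 15, 9 and 26 against a median of 6. The Glul window also lies in an exon of a non-coding transcript of Teddm2, and its last bases in Mir8114. Matches describe the letters of the windows only.

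The first comparison, HMD against Con, asks how the methionine diet alone related to these genes. None of the 9 passed the test, and their log2 fold changes lay between -0.12 and 0.29. All 9 had a mean FPKM of at least 1 and were tested by limma on log2(FPKM + 1), with adjustment over all 12989 genes tested and a threshold of an adjusted p under 0.05. The share called among all genes was 0%, so the count of 0 members is that of the background. At an unadjusted p under 0.05 there were also 0 members, where 4.56% of all genes passed, and limma voom on the recovered reads called 0. The smallest p of a member was 0.0959 (adjusted p = 0.980, limma), for Slc38a1. The median log2 fold change was 0.013 over the members and -0.0038 over all genes, and the median size regardless of sign was 0.051 and 0.11.

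Among the transporters of the plasma membrane, Slc1a2 had 329, 375 and 224 FPKM in Con and 301, 373 and 264 FPKM in HMD. The spread inside each group was wide and the groups overlapped (log2 fold change 0.034, 95% interval -0.47 to 0.54). Slc1a3 had 88.9, 90.9 and 77.8 FPKM in Con and 77.3, 90.1 and 81.2 FPKM in HMD, and here too the groups overlapped (-0.051, interval -0.33 to 0.22). Slc1a1 is the member that the study took up among its genes of long-term potentiation, those with decreased peaks of the histone mark H3K27ac. By qRT-PCR the study reported lower transcription of most of these genes in hippocampus and cortex. Its text does not say which. In the RNA sequencing, Slc1a1 had 19.1, 18.7 and 16.7 FPKM in Con and 17.4, 19.9 and 17.0 FPKM in HMD. The groups overlapped, and the log2 fold change was -0.0049 with an interval from -0.26 to 0.26, on the scale of log2(FPKM + 1). Slc1a6 had 4.53, 4.14 and 3.38 FPKM in Con and 4.60, 4.73 and 4.86 FPKM in HMD. It was the 1 member whose HMD samples all lay above the Con samples, and none lay below in all 3. In the later table, which lists the same samples again, the lowest HMD value of 4.65 FPKM lay below the highest Con value of 4.68 FPKM. Among all genes the groups did not overlap in 9.37%, with HMD above in 4.71% and below in 4.66%. Slc1a6 did not pass the test (log2 fold change 0.20, SE 0.120, adjusted p = 0.980).

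Of the vesicular transporters, Slc17a7 had 245, 229 and 203 FPKM in Con and 206, 254 and 215 FPKM in HMD, with overlapping groups (log2 fold change -0.0051, interval -0.32 to 0.31). Slc17a8 had 0.896, 1.27 and 1.54 FPKM in Con and 1.00, 1.37 and 0.786 FPKM in HMD, and these overlapped as well (-0.12, interval -0.53 to 0.28). The recycling enzyme Glul had 369, 360.0 and 426 FPKM in Con and 391, 363 and 410.0 FPKM in HMD. Its groups lay within the same range, with an interval of the log2 fold change from -0.27 to 0.30. For the glutamine carriers, Slc38a1 had 9.36, 11.2 and 9.05 FPKM in Con and 14.8, 12.2 and 10.2 FPKM in HMD. The highest Con sample lay above the lowest HMD sample, and the log2 fold change of 0.29 (SE 0.152) was the largest of the 9 genes. Slc38a3 had 9.31, 9.42 and 9.44 FPKM in Con and 10.4, 8.14 and 11.4 FPKM in HMD. The Con samples were close together and lay inside the range of HMD (0.068, interval -0.24 to 0.38).

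**Figure D2:**
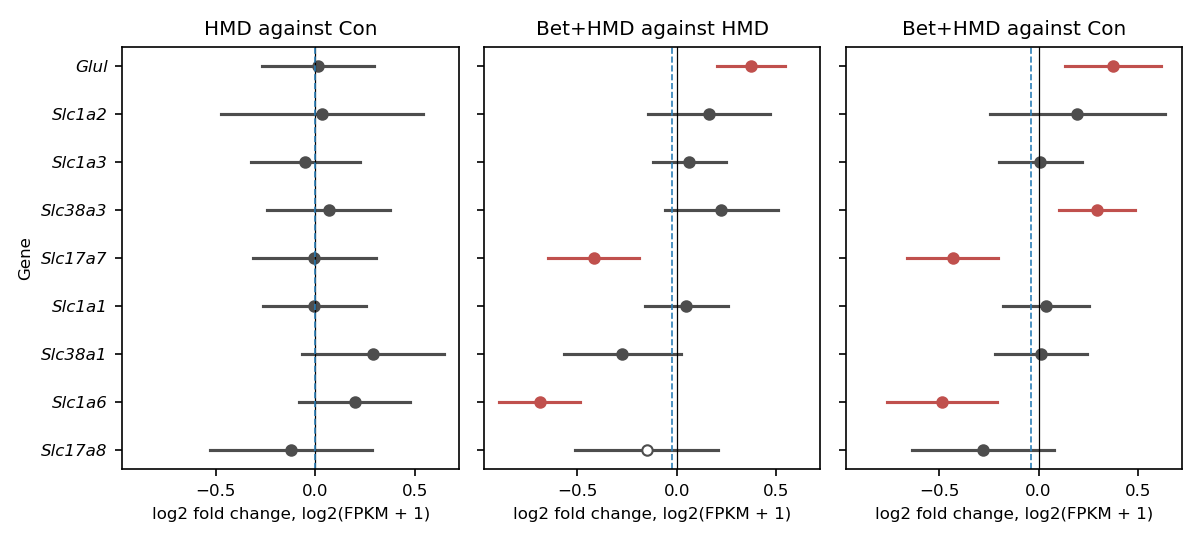
Log2 fold change on the scale of log2(FPKM + 1), with the 95% interval of limma as a bar, for the 9 genes in the 3 comparisons. Red marks an adjusted p under 0.05, the open circle marks Slc17a8 below the filter on low values, the dashed line is the median of all genes, and red appears for 0 genes in HMD against Con, 3 in Bet+HMD against HMD and 4 in Bet+HMD against Con.

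The second comparison, Bet+HMD against HMD, asks what differed after betaine. Glul was higher, and Slc1a6 and Slc17a7 were lower, in all 3 Bet+HMD samples than in all 3 HMD samples, while the astrocytic transporters Slc1a2 and Slc1a3 did not pass the test. Of the 8 members above the filter, 3 were called (37.5%), 1 higher and 2 lower, where 48.3% of the 13672 genes tested were called, 22.8% higher and 25.5% lower. With a log2 fold change of at least 1 in size as well, 0 members and 8.93% of all genes were called. The groups of 3 members did not overlap, against 60.1% of all genes (Bet+HMD above in 28.3% and below in 31.8%). The median log2 fold change was 0.055 over the members and -0.025 over all genes, and the median size was 0.25 and 0.32.

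Glul had 518, 511 and 491 FPKM in Bet+HMD and 393, 369.7 and 413 FPKM in HMD. The lowest Bet+HMD sample lay above the highest HMD sample, and the difference passed the test (log2 fold change 0.37, SE 0.0727, adjusted p = 0.00530, limma). Without the filter on low values, its adjusted p was 0.05001. Slc17a7 had 166, 174 and 168 FPKM in Bet+HMD and 207, 260.4 and 217 FPKM in HMD. All Bet+HMD samples lay below all HMD samples and the difference passed (log2 fold change -0.42, SE 0.0967, adjusted p = 0.0104, limma), but its call depended on the scaling of the libraries. The log2 fold change of Slc17a7 was -0.22 (adjusted p = 0.0978) after rescaling to TPM and 0.010 (adjusted p = 0.933) after quantile normalization, all by limma. Relative to the median of all genes, which moves with the scaling, Slc17a7 was -0.39 in FPKM, -0.38 in TPM and 0.052 after quantile normalization. Slc1a6 had 2.81, 2.36 and 2.78 FPKM in Bet+HMD and 4.65, 4.97 and 5.01 FPKM in HMD. The groups were far apart relative to their spread (log2 fold change -0.69, SE 0.0865, adjusted p = 0.00079, limma), and this was the largest difference among the members. It held under the scalings, from -0.81 to -0.64, which is the range of quantile normalization and TPM.

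The other members did not pass this test. Slc1a2 had 346, 343 and 372 FPKM in Bet+HMD and 305, 385 and 269 FPKM in HMD, so the Bet+HMD samples lay inside the wide range of HMD (log2 fold change 0.16, SE 0.130, adjusted p = 0.338, limma). Leaving out HMD sample 2, the highest, gave 0.30 with an adjusted p of 0.0197 by limma. Slc1a3 had 87.2, 88.4 and 88.1 FPKM in Bet+HMD and 78.0, 92.1 and 82.8 FPKM in HMD. It overlapped and did not pass (log2 fold change 0.062, interval -0.12 to 0.24), whereas in TPM it was 0.26 (adjusted p = 0.0298), by limma. Slc1a1 had 20.1, 17.6 and 19.4 FPKM in Bet+HMD and 17.7, 20.2 and 17.3 FPKM in HMD, with overlap and an interval of the log2 fold change from -0.16 to 0.26.

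Slc38a3 had 11.3, 12.9 and 11.6 FPKM in Bet+HMD and 10.6, 8.33 and 11.6 FPKM in HMD. The highest HMD sample lay among the Bet+HMD samples (log2 fold change 0.22, SE 0.120, adjusted p = 0.164, limma), and in TPM the log2 fold change was 0.43 (adjusted p = 0.0308). Slc38a1 had 9.92, 9.83 and 10.6 FPKM in Bet+HMD and 14.9, 12.5 and 10.3 FPKM in HMD. The lowest HMD sample lay within the Bet+HMD range (log2 fold change -0.27, SE 0.125, adjusted p = 0.107, limma). Without that HMD sample, the value was -0.40 with an adjusted p of 0.0158. Slc17a8 had 0.707, 0.994 and 0.876 FPKM in Bet+HMD and 1.02, 1.40 and 0.803 FPKM in HMD and was below the filter, with a log2 fold change of -0.15 and an adjusted p of 0.505 in a limma fit without one.

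The last comparison, Bet+HMD against Con, shares its Bet+HMD samples with the second. Glul and Slc38a3 were higher and Slc17a7 and Slc1a6 lower in Bet+HMD, and the groups of these 4 genes did not overlap. They were the 4 members called of 9 tested (44.4%), 2 in each direction, where 39.7% of the 13643 genes tested were called, 19.4% higher and 20.4% lower, and groups did not overlap in 55.1% (Bet+HMD above in 26.1% and below in 29%). None of the members and 8.74% of all genes also had a log2 fold change of at least 1 in size. The median log2 fold change was 0.011 over the members and -0.039 over all genes, and the median size was 0.28 and 0.30. The Con samples of the later table had 374, 364 and 437 FPKM of Glul, all under the Bet+HMD values given above (log2 fold change 0.38, SE 0.102, adjusted p = 0.0261, limma). Slc17a7 had 249, 231 and 208 FPKM in Con, all above Bet+HMD (log2 fold change -0.43, SE 0.0959, adjusted p = 0.0124, limma). Slc1a6 had 4.68, 4.21 and 3.48 FPKM in Con, also all above Bet+HMD (log2 fold change -0.48, SE 0.116, adjusted p = 0.0163, limma). Slc38a3 had 9.44, 9.53 and 9.68 FPKM in Con, all below Bet+HMD (log2 fold change 0.29, SE 0.0805, adjusted p = 0.0265, limma).

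Fewer members were called against Con when some single samples were left out. Leaving out 1 sample kept the direction of all 4 genes, but the number of members called was 2 without Con sample 1 and 1, 0 and 1 without Bet+HMD sample 1, 2 and 3. Calls over all genes were 5422 of 13643 with every sample and 5650 and 6269 without Con sample 2 and 3. They fell to 4654 of 13794 genes without Con sample 1. Without Bet+HMD sample 1, 2 and 3 they fell to 3424, 3347 and 3302, of 13538, 13524 and 13548 genes. The adjusted p-values of Glul were then 0.0668 and 0.0727 to 0.105, those of Slc17a7 without a Bet+HMD sample 0.0518 to 0.0622, those of Slc38a3 0.0622 and 0.0628 to 0.122, and that of Slc1a6 without Bet+HMD sample 2 0.0687, all by limma. In TPM 2 members were called, Glul and Slc38a3, and the log2 fold change was -0.38 (adjusted p = 0.0646) for Slc1a6 and -0.21 (adjusted p = 0.124) for Slc17a7, again by limma. Relative to the median of all genes these were -0.55 and -0.38 in TPM, beside -0.45 and -0.39 in FPKM. Quantile normalization gave 0.021 (adjusted p = 0.876, limma) for Slc17a7, the opposite sign, and called 6 members, 4 higher and 2 lower. Of all 13643 genes, 5412 were called in TPM and 5256 after quantile normalization. The 5 members that did not pass had log2 fold changes of 0.20 (Slc1a2, interval -0.25 to 0.64), 0.0099 (Slc1a3, -0.20 to 0.22), 0.038 (Slc1a1, -0.18 to 0.25), 0.011 (Slc38a1, -0.22 to 0.24) and -0.28 (Slc17a8, -0.64 to 0.077). Their Con samples of the later table lay between 229.9 and 382, 79.7 and 92.2, 17.1 and 19.4, 9.29 and 11.4, and 0.925 and 1.57 FPKM, and all 5 overlapped with Bet+HMD.

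The median of all genes moved with the scaling too. Over all genes it was -0.025 against HMD and -0.039 against Con in FPKM, and 0.16 and 0.17 in TPM, all as log2 fold changes. Glul against HMD was 0.57 (adjusted p = 0.000741) in TPM and 0.75 (adjusted p = 0.000226) after quantile normalization, by limma. Relative to the median of all genes, Glul was 0.40 higher in FPKM and 0.41 higher in TPM, and Slc1a6 was -0.66 in FPKM and -0.79 in TPM, as log2 values. Quantile normalization also put Slc1a2 and Slc1a3 above the threshold against HMD, with 0.51 (adjusted p = 0.0202) and 0.44 (adjusted p = 0.00338). Against Con it did so for Slc1a2, 0.65 (adjusted p = 0.0355), for Slc1a3, 0.42 (adjusted p = 0.0188), and for the lower Slc17a8, -0.53 (adjusted p = 0.0270), by limma.

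A ratio of 2 genes inside a library does not depend on a factor common to all genes of that library, as in TPM. Quantile normalization is no such factor and can change the ratio. Against HMD it gave log2 fold changes of 0.21 for Slc1a1 and 0.010 for Slc17a7, beside 0.048 and -0.42 in FPKM. Of 5 ratios set for the members, Slc1a1 to Slc17a7, both neuronal, was 0.112 ± 0.0106 in the Bet+HMD samples (SD, n = 3) and 0.0809 ± 0.00406 in HMD, without overlap (two-sided exact permutation test, p = 0.1, adjusted p = 0.5 over the 5 ratios). Against Con, where it was 0.0807 ± 0.00249, the exact p was 0.1 too, with an adjusted p of 0.167. With 3 samples against 3, 0.1 is the smallest p this test can give. Slc38a3 to Slc38a1, the astrocytic over the neuronal glutamine carrier, was 1.18 ± 0.114 in Bet+HMD and 0.956 ± 0.108 in Con (exact p = 0.1, adjusted p = 0.167), and in HMD it was 0.833 ± 0.249, which overlapped with Bet+HMD (exact p = 0.2). Slc17a7 to Slc17a6, the cortical over the subcortical vesicular transporter, was 21.4 ± 13.7 in HMD and 60.0 ± 19.5 in Con in the earlier table, without overlap (exact p = 0.1, adjusted p = 0.5). It was 19.4 ± 0.748 in Bet+HMD and 60.5 ± 20.7 in Con in the later table (exact p = 0.1, adjusted p = 0.167). Slc1a3 to Slc1a2 and Glul to Slc1a2 overlapped between groups in every comparison, with exact p-values from 0.3 to 1. Inside Con, the ratio of Glul to Slc1a2 had an SD of 0.507 around a mean of 1.32, as Con sample 3 had the lowest Slc1a2 and the highest Glul of the group.

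**Figure D3:**
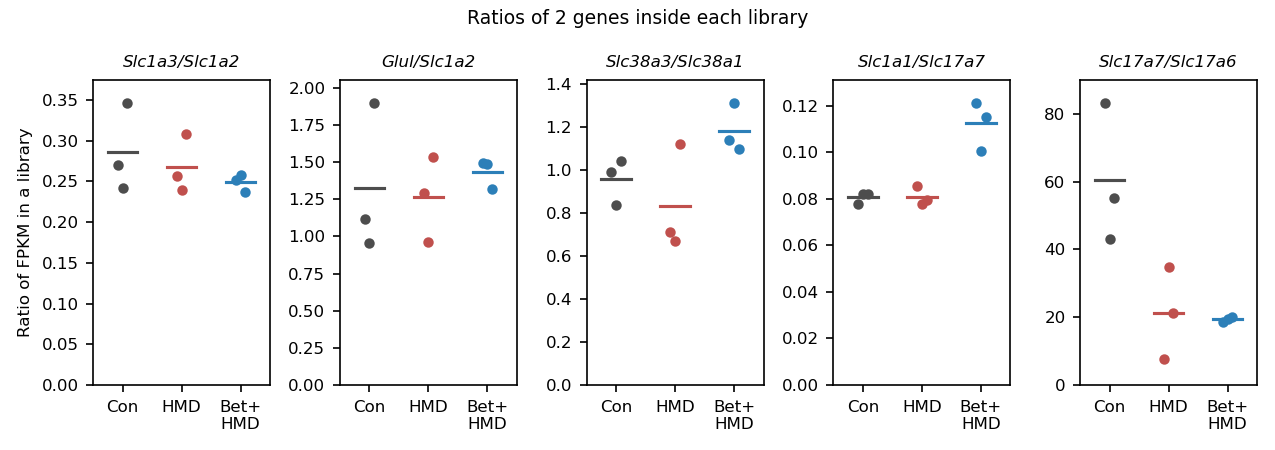
Ratio of the FPKM of 2 genes inside each library of the later table, by group, with a line at the mean of 3 samples and each axis starting at 0. The ratio Slc1a1/Slc17a7 is 0.112 on average in Bet+HMD against 0.0809 in HMD and 0.0807 in Con, and Slc17a7/Slc17a6 is 60.5 on average in Con against 21.2 in HMD and 19.4 in Bet+HMD.

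The make-up of the transporter families was computed in each library. Of the summed FPKM of Slc1a1, Slc1a2, Slc1a3 and Slc1a6 in the later table, Slc1a2 made up 73.7% ± 3.66 (SD) in Con, 74.6% ± 2.42 in HMD and 76.3% ± 0.685 in Bet+HMD. Slc1a3 made up 20.9% ± 2.89, 19.9% ± 1.97 and 19.0% ± 0.653, and Slc1a1 made up 4.44% ± 0.690, 4.34% ± 0.292 and 4.11% ± 0.273 in the same order. The share of Slc1a6 was 0.980% ± 0.115, 1.16% ± 0.174 and 0.572% ± 0.0462. Bet+HMD had the lowest mean share of Slc1a6, as it had of Slc1a3 and Slc1a1. Of the vesicular transporters Slc17a6, Slc17a7 and Slc17a8, Slc17a7 made up 97.7% ± 0.658 in Con, 93.3% ± 4.62 in HMD and 94.6% ± 0.135 in Bet+HMD, and Slc17a8 stayed between 0.435% and 0.550% on average.

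Markers of the cell types that carry these genes were measured in the same libraries. Their counts stand beside all genes, of which 22.8% were called higher and 25.5% lower against HMD, and 19.4% and 20.4% against Con. The 12 astrocyte markers summed to 741 to 833 FPKM in Con, 729 to 811 in HMD and 599.5 to 632 in Bet+HMD, with none at 0. Against HMD, 5 of them fell (Gfap, Gja1, Gjb6, Ndrg2 and Mlc1) and Sox9 rose, and against Con 5 fell (Gfap, S100b, Gja1, Ndrg2 and Mlc1) and 0 rose. In TPM 4 fell and 1 rose against HMD and 1 fell and 2 rose against Con, and after quantile normalization 4 fell and 2 rose against HMD and 1 fell and 1 rose against Con. Glul was higher in the group with the lowest sum of these markers. As a ratio to it, Glul was 0.492 ± 0.0315 in Con, 0.501 ± 0.0142 in HMD and 0.819 ± 0.00184 in the Bet+HMD samples (SD, n = 3). The same ratio was 0.401 ± 0.120, 0.412 ± 0.102 and 0.572 ± 0.0411 for Slc1a2 and 0.110 ± 0.0144, 0.108 ± 0.0159 and 0.142 ± 0.00448 for Slc1a3. The 8 markers of excitatory neurons summed to 1676 to 1889 FPKM in Con, 1441 to 1721 in HMD and 1379 to 1409 in Bet+HMD, again with none at 0. Against HMD, Tbr1, a transcription factor of cortical projection neurons (log2 fold change 0.75), rose and Hpca, hippocalcin (-0.56), fell. Against Con, Tbr1 (0.94) rose and Hpca (-0.86) and Nrgn, neurogranin (-0.63), fell. These were called in TPM as well. After quantile normalization Tbr1 was called in both comparisons and Hpca against HMD, whereas against Con Hpca was -0.37 (adjusted p = 0.0741) and Nrgn -0.17 (adjusted p = 0.158) by limma, and of the 8 markers 4 rose and 0 fell against Con. Slc17a7 as a ratio to that sum was 0.128 ± 0.0153 in Con, 0.143 ± 0.0165 in HMD and 0.122 ± 0.00172 in Bet+HMD. The 8 markers of inhibitory neurons summed to 421 to 474 FPKM in Con, 387 to 512 in HMD and 283 to 331 in Bet+HMD. Of these, 4 fell against HMD, 3 fell against Con and 0 rose. In TPM 3 and 1 fell. Against HMD, 4 of 8 oligodendrocyte, 4 of 8 microglia and 3 of 7 endothelial markers fell and 0 rose. In TPM 3, 3 and 2 fell and 1, 1 and 2 rose. Of the 10 markers of hippocampal subfields, 3 fell in both comparisons, also in TPM and after quantile normalization. Bok, a marker of CA3, averaged 30.2 ± 5.57 FPKM (SD) for Con, 29.9 ± 5.18 for HMD and 9.38 ± 0.720 for the Bet+HMD samples (log2 fold change -1.56 against HMD and -1.57 against Con). Spink8 was -1.20 and -1.55, and Fibcd1, a marker of CA1, was -0.80 and -1.33. The transcription factor Zbtb20 rose against Con (0.62) and was 0.49 (adjusted p = 0.0647, limma) against HMD, where it was called in TPM and after quantile normalization. The part of these markers in the results of the members was not tested. For Slc1a6, known from Purkinje cells, the 8 cerebellar markers summed to 15.7 to 19.0 FPKM in Con, 20.9 to 25.5 in HMD and 16.4 to 17.5 in Bet+HMD. Only 3 of them passed the filter. Against HMD 0 of these were called, and all 3 lay below 0 in TPM and after quantile normalization. Against Con 1 was called higher and 1 lower. The Purkinje cell gene Pcp2 was near the floor, with at most 3 reads in any Con or HMD library and up to 14 in Bet+HMD. The part of the cerebellar markers in the Slc1a6 values was not tested.

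The wider glutamate cycle was read from lists of 58 other genes. None of the 51 tested passed in HMD against Con, where 4 had an unadjusted p under 0.05 by limma. The smallest p was that of Slc38a2, the system A carrier SNAT2, with 15.4 ± 3.02 FPKM in Con and 24.6 ± 3.43 FPKM in HMD (log2 fold change 0.65, adjusted p = 0.860, limma). Ucp2, a mitochondrial carrier, had 5.44 ± 1.35 FPKM in Con and 8.54 ± 0.955 FPKM in HMD (0.58, adjusted p = 0.906, limma). Slc17a6, the vesicular transporter VGLUT2 of thalamic and other subcortical neurons, had 3.98 ± 1.16 FPKM in Con and 14.7 ± 10.5 FPKM in HMD (1.48, adjusted p = 0.906, limma). In the same libraries the 9 markers of the thalamus, a region next to the hippocampus, summed to 36.4 to 44.8 FPKM in Con and 57.8 to 119 in HMD. Of the 8 thalamic markers tested, 6 lay above Con in all HMD samples, beside 4.71% of all genes, and 0 were called. In Bet+HMD the sum was 36.4 to 37.1 FPKM. Called lower than in HMD were 4 of 8 thalamic markers, beside 25.5% of all genes. The part of the thalamic markers in the Slc17a6 values and in the Slc17a7 to Slc17a6 ratio was not tested.

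In Bet+HMD against HMD, 27 of 52 tested genes of the cycle (51.9%) were called, 4 higher and 23 lower, beside the 48.3% of all genes given above. All 6 mitochondrial carriers on the list fell, led by the uncoupling protein Ucp2 (-1.37), the oxoglutarate carrier Slc25a11 (-0.83) and the aspartate-glutamate carrier Slc25a13 (-0.72). In TPM and after quantile normalization 5 of the 6 were called, and all 6 lay below 0 under both. Of 17 enzymes, 9 fell and 1 rose, and in TPM and after quantile normalization 7 fell and 1 rose. Those that fell included the aspartate aminotransferase Got1 (-0.65), glutamate dehydrogenase Glud1 (-0.58) and the alanine aminotransferase Gpt2 (-0.56), and the glutaminase Gls2 rose (0.35). Among 11 neutral amino acid transporters tested, Slc7a5 (-0.59), Slc38a2 (-0.52) and Slc38a10 (-0.26) fell and Slc38a6 (1.10) and Slc38a9 (0.50) rose, with the same signs in TPM and after quantile normalization. Of 8 partners and regulators, Psma7 (-0.76), Arl6ip1 (-0.75) and Arl6ip5 (-0.54), the latter known to restrain EAAC1, fell, and Arhgef11 (0.34), a partner of EAAT4, rose. Of 8 genes of the sodium pump and potassium uptake, which hold up the gradients that drive the transporters, Atp1b1 (-0.54) and Atp1b3 (-0.39) fell, but after quantile normalization 4 of the 8 rose, 0 fell and Atp1b1 was at 0.010. The median log2 fold change was -0.20 over the tested genes of the cycle and -0.025 over all genes.

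**Figure D4:**
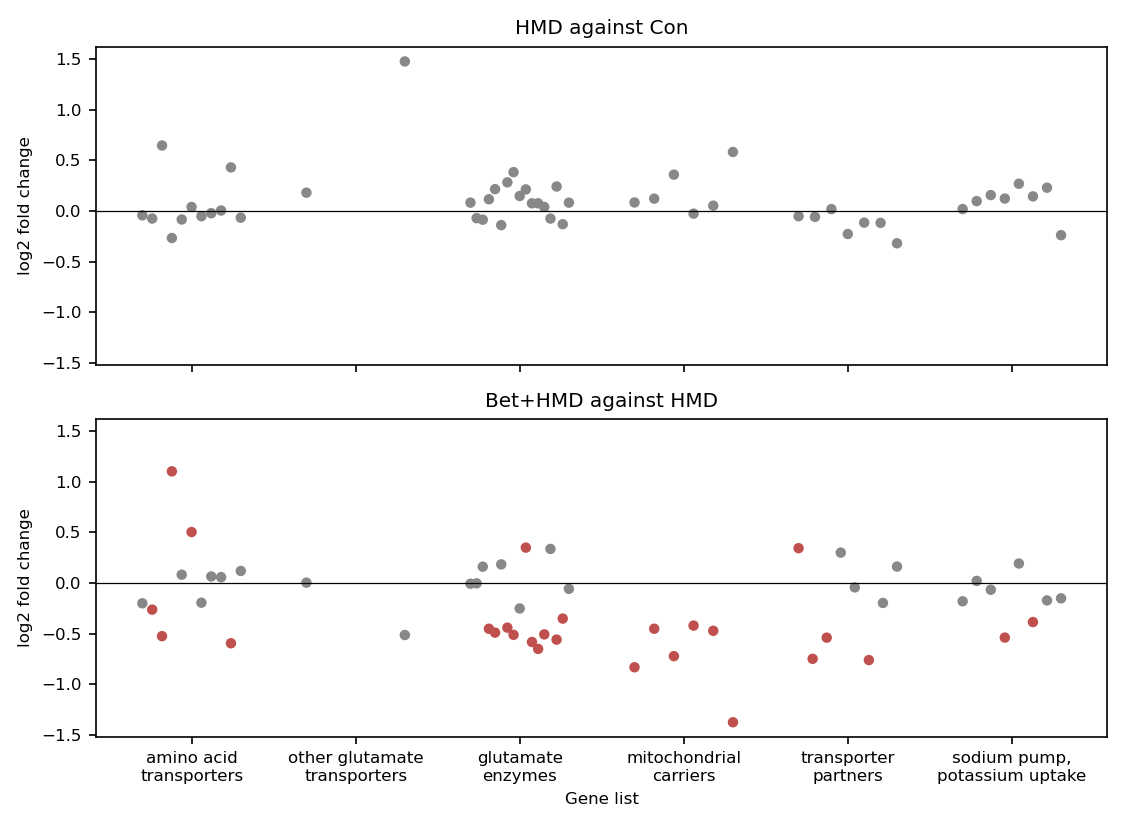
Log2 fold change on the scale of log2(FPKM + 1) of the tested genes of 6 lists around the glutamate cycle, 1 point a gene, in HMD against Con and in Bet+HMD against HMD, with red for an adjusted p under 0.05. No point is red in HMD against Con, and the 6 mitochondrial carriers are all red and below 0 in Bet+HMD against HMD.

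Against Con, 22 of 51 tested genes of the cycle (43.1%) were called, 5 higher and 17 lower. Among all genes 39.7% were called, 19.4% higher and 20.4% lower. The median log2 fold change was -0.16 over the genes of the cycle and -0.039 over all genes. Of 5 mitochondrial carriers tested, 4 fell (2 in TPM and after quantile normalization, with all 5 below 0). Of 17 enzymes, 6 fell and 1 rose, but in TPM 2 fell and 1 rose and after quantile normalization 0 fell and 2 rose. Got1 (-0.58) and Glud1 (-0.51) were the 2 called lower in TPM too, and after quantile normalization they were -0.15 (adjusted p = 0.182) and -0.12 (adjusted p = 0.380) by limma. Gls2 (0.55) rose under all 3. Slc38a2 was not called (0.13, adjusted p = 0.486, limma), and Slc17a6 rose (0.97, adjusted p = 0.00460, limma). The balance of directions depended on the scaling. In TPM 8 rose and 18 fell against HMD, and 8 rose and 6 fell against Con. After quantile normalization 10 rose and 17 fell against HMD, and 14 rose and 7 fell against Con. Over all genes, 6470 of 13672 were called against HMD and 5412 of 13643 against Con in TPM. After quantile normalization these were 6420 and 5256. The median of all genes was 0.16 and 0.17 in TPM and -0.041 and -0.035 after quantile normalization. Shares of all genes by direction under these scalings are not given, so the balance cannot be set beside them.

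The genes most like called members across the 9 samples of the later table were sought among 13464 genes by the root mean square difference of the centred log2(FPKM + 1). Slc1a6 was closest to Lrrn2 (0.0628), Glul to Zfp273 (0.0389) and Slc38a3 to Psmd11 (0.0721), all as log2 units and as a description of these samples. These samples share the 3 groups, the tissue and the table.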

How the data were processed

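Per the labels, total RNA of hippocampus was sequenced in 9 samples. The study's methods give ribosomal RNA depletion, stranded paired-end libraries, HISAT2 and featureCounts, and the submitters' processing notes list HISAT2 2.1.0, featureCounts 1.5.0-p3 and mm10. The authors deposited FPKM in 2 tables, with gene length in bases as another unit used without change. Multiplying FPKM by length and library size gave whole reads for 100% of values (tolerance 0.01 read). Groups came from the titles. Columns with the prefix COL were read as Con, which is inferred, and 0 columns were left unmapped.

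Since FPKM is no count, the main test was limma 3.58.1 (R 4.3.3; eBayes with trend, two-sided) on log2(FPKM + 1) of both groups of a comparison, for genes with mean FPKM of at least 1, with Benjamini-Hochberg adjustment across the tested genes. SE is limma's and SD is over 3 samples. Fold changes on this scale understate those of low genes. Ratios were compared by exact permutation in Python with scipy. The fits were tested on simulated data. Pearson correlations of same-numbered samples' deviations were -0.0555, 0.346 and 0.319 for HMD and Con, and none above 0.1 for Bet+HMD. The main test did not pair samples by number, and whether HMD and Con samples of the same number belong together is not known. All 9 members were named, and from each list the called genes with the largest changes, or without calls the smallest p. The members and lists were chosen with earlier results of these data known. Some genes that met these rules are not reported here.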

Additional observations from a re-analysis of the deposited data

How the results depend on the processing

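Directions of the called members held under all alternatives (a pseudocount of 0.1, no filter or one at 5 FPKM, TPM, quantile normalization, median-ratio centring, moderation without trend, a joint fit of all groups, only protein-coding genes, voom on recovered reads, the replicate block and the omission of each sample; Slc1a6 was too low for the 5 FPKM filter and was not tested there), except Slc17a7 after quantile normalization, 0.010 against HMD and 0.021 against Con. The cause was not tested. The number of members called against Con, 4, was 2 in TPM, 6 after quantile normalization and 0 to 4 when a sample was left out. It was 1 with replicate number as a block, where 15 genes of the wider cycle were called. Whether the numbers pair HMD and Con samples is not known (mean correlation 0.203, where 2 of 3 samples correlated best with their own number). For Bet+HMD and Con the mean correlation was -0.105. Genes of the cycle called against Con, 22, were 14 in TPM and 12 to 28 when a sample was left out. Calls over all genes against Con, 5422, were 5412 in TPM and 5256 after quantile normalization. They were 3924 with the block and 3302 to 6269 when a sample was left out. Against HMD the members called were 2 to 4 and the genes of the cycle 24 to 29 over all alternatives, and against HMD the block gave 3 members. In HMD against Con the counts were 0 under every alternative.

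Values near 0 changed sign. In HMD against Con, Slc1a1 was 0.014 in TPM and 0.0052 after quantile normalization, and Slc17a7 was 0.014 and 0.012. Leaving out a sample gave -0.070 to 0.035 for Slc1a1, -0.18 to 0.19 for Slc1a2, -0.096 to 0.056 for Slc17a7, -0.033 to 0.087 for Glul and -0.026 to 0.19 for Slc38a3. In Bet+HMD against Con it gave -0.014 to 0.092 for Slc1a1, -0.017 to 0.35 for Slc1a2, -0.055 to 0.049 for Slc1a3 and -0.039 to 0.096 for Slc38a1. The log2 ratio differences that changed sign without a sample were, for HMD against Con, Slc1a3/Slc1a2 (-0.20 to 0.062), Glul/Slc1a2 (-0.22 to 0.27) and Slc1a1/Slc17a7 (-0.033 to 0.022, and 0.0027 in the later table). For Bet+HMD against HMD they were Slc1a3/Slc1a2 (-0.18 to 0.0049) and Slc17a7/Slc17a6 (-0.48 to 0.61), and for Bet+HMD against Con Glul/Slc1a2 (-0.024 to 0.47). At 58 to 182 reads, Slc17a8 and Slc1a6 carry the largest counting error of the members. With 3 samples a group, the 95% intervals of all 9 members in HMD against Con included 0. The test cannot exclude other differences that lie inside them. Betaine cannot be told apart from the longer time of the Bet+HMD mice or from the handling of their libraries.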
